A study of Rattus norvegicus with 6 samples.

Results

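The Myc network was followed as 9 genes: Myc and Mycn, their obligate partner Max, the Max-binding antagonists Mxd1, Mxd3, Mxd4, Mxi1 and Mnt, and the related partner Mlx. They were taken by symbol from probe sets annotated with exactly 1 gene, and each gene was represented by its probe set with the highest mean signal. All 9 were measured, among 14506 genes in all, by 12 of the 29214 probe sets. The arrays came from RBL-2H3, a rat basophilic leukaemia line used as a mast cell model, in which all samples, the controls included, overexpressed wild-type Dectin-1, the cell-surface receptor for beta-glucans. Of the 6 arrays, 2 came from cells given the Syk inhibitor R406 and then curdlan, a particulate beta-glucan, 2 from cells given curdlan alone, and 2 from control cells with no stimulus. The sources used here give neither doses and times nor whether the line was a single clone, and cells with R406 alone were not analysed here, so an effect of R406 on resting cells and one on the response to curdlan cannot be told apart.

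Myc is a transcription factor that drives ribosome production, nutrient uptake and growth, and it binds DNA only when paired with Max. The MXD proteins and Mnt compete for Max and recruit the SIN3 and histone deacetylase corepressors to the same short DNA element, the E-box CACGTG, so the balance between Myc and these antagonists is held to set the output of shared target genes. Mlx is a parallel partner, which pairs with the glucose-sensing factors MondoA and ChREBP and also with some MXD proteins and Mnt. Myc itself is a classical immediate early gene with a short-lived mRNA, and several MXD genes are known to be expressed as cells stop dividing and differentiate.

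Levels are log2 signals as deposited, and each change is a difference between 2 group means, given with its SE (standard error) from a limma model of all 6 arrays. A gene was called when its Benjamini-Hochberg adjusted p over all probe sets was under 0.05. Array medians lay between 7.204 and 7.241, and arrays of a group correlated at 0.99747 to 0.99811 across probe sets. Mast cell markers were bright in every group: the IgE receptor genes Fcer1a and Ms4a2 averaged 12.75 and 13.52 over the 6 arrays, and the stem cell factor receptor gene Kit 12.72, while the tryptase genes Tpsab1 and Tpsb2 averaged 6.14 and 6.27, below the array medians. Of 15 mast cell, 7 macrophage, 6 lymphocyte and 7 fibroblast or epithelial markers measured, 0 were called in any comparison (limma), and 0 to 4 of a list differed at an unadjusted p under 0.05. In RNA from whole cultures, fewer cells that express a gene and less of its RNA per cell cannot be told apart.

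RefSeq promoters (GRCr8) of 7 of the 9 genes matched by symbol, each covering 250 bases before and 50 bases after a transcript start, and were searched for CACGTG, the E-box that the network's own dimers bind. The motif reads the same on both strands. It was found in the promoters of Max, Mnt, Mlx and Mxd4, which is 57.1% of the 7, and in 6.42% of all 33469 promoters of this length. The broader form CANNTG, which includes CACGTG, was found in 5 of the 7 and in 72.1% of all promoters. The promoters of the 4 antagonists called higher under R406 relative to curdlan alone are shown, with CACGTG in capitals where it occurs. Mxd4 (chr14:80786531-80786830, plus strand) holds the E-box 197 bases before the start, and Mnt (chr10:60197709-60198008, plus strand) holds it 123 bases before. Mxd1 (chr4:120675080-120675379, minus strand) and Mxd3 (chr17:9306302-9306601, plus strand) have no match in these letters.
Mxd4: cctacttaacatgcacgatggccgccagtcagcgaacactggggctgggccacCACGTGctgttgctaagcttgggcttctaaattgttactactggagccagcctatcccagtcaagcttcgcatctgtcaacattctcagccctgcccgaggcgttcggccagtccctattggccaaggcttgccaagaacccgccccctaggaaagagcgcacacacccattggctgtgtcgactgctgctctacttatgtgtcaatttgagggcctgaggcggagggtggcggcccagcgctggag
Mnt: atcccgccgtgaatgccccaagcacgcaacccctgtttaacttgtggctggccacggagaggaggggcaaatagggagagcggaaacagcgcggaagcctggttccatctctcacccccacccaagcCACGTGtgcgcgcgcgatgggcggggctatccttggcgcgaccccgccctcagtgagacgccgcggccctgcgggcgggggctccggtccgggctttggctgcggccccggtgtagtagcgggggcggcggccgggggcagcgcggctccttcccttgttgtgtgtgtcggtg
Mxd1: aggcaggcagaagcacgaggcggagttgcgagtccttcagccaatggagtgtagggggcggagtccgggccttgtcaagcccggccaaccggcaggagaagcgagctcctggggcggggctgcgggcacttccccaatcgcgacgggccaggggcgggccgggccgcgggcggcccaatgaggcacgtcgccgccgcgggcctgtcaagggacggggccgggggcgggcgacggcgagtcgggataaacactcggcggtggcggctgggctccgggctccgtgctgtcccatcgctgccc
Mxd3: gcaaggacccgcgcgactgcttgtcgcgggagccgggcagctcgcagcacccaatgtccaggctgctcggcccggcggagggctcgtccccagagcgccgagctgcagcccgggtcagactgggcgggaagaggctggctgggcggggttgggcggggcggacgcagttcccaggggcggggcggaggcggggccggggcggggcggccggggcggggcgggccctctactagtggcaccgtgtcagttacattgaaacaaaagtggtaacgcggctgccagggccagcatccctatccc

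For the partners Max and Mlx, whose own promoters carry the element, the 30 bases on each side of it are shown. The element lies 33 bases before the start in Max (chr6:101395241-101395540, minus strand) and 70 bases before it in Mlx (chr10:86519636-86519935, plus strand).
Max: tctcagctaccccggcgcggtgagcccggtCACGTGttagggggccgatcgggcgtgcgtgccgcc
Mlx: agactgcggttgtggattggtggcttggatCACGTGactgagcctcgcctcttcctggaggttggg
A match describes the sequence only, and binding was not measured.

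Under R406 plus curdlan Myc was far below both other groups while most of its antagonists were above them. Myc (probe set 10896814) had log2 signals of 8.29 and 8.12 on the R406 plus curdlan arrays, against 12.14 and 12.13 on the curdlan arrays and 11.65 and 11.51 on the control arrays. The 3 groups did not overlap, and the R406 plus curdlan arrays stood apart by more than 3 log2 units. Relative to curdlan alone Myc fell by 3.93 ± 0.0807 log2 units under R406, a 15.2-fold lower signal (limma, adjusted p = 0.000112). Only 5 of the 14506 genes had a lower value in this comparison, in which Myc was number 6 from the bottom.

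**Figure D1:**
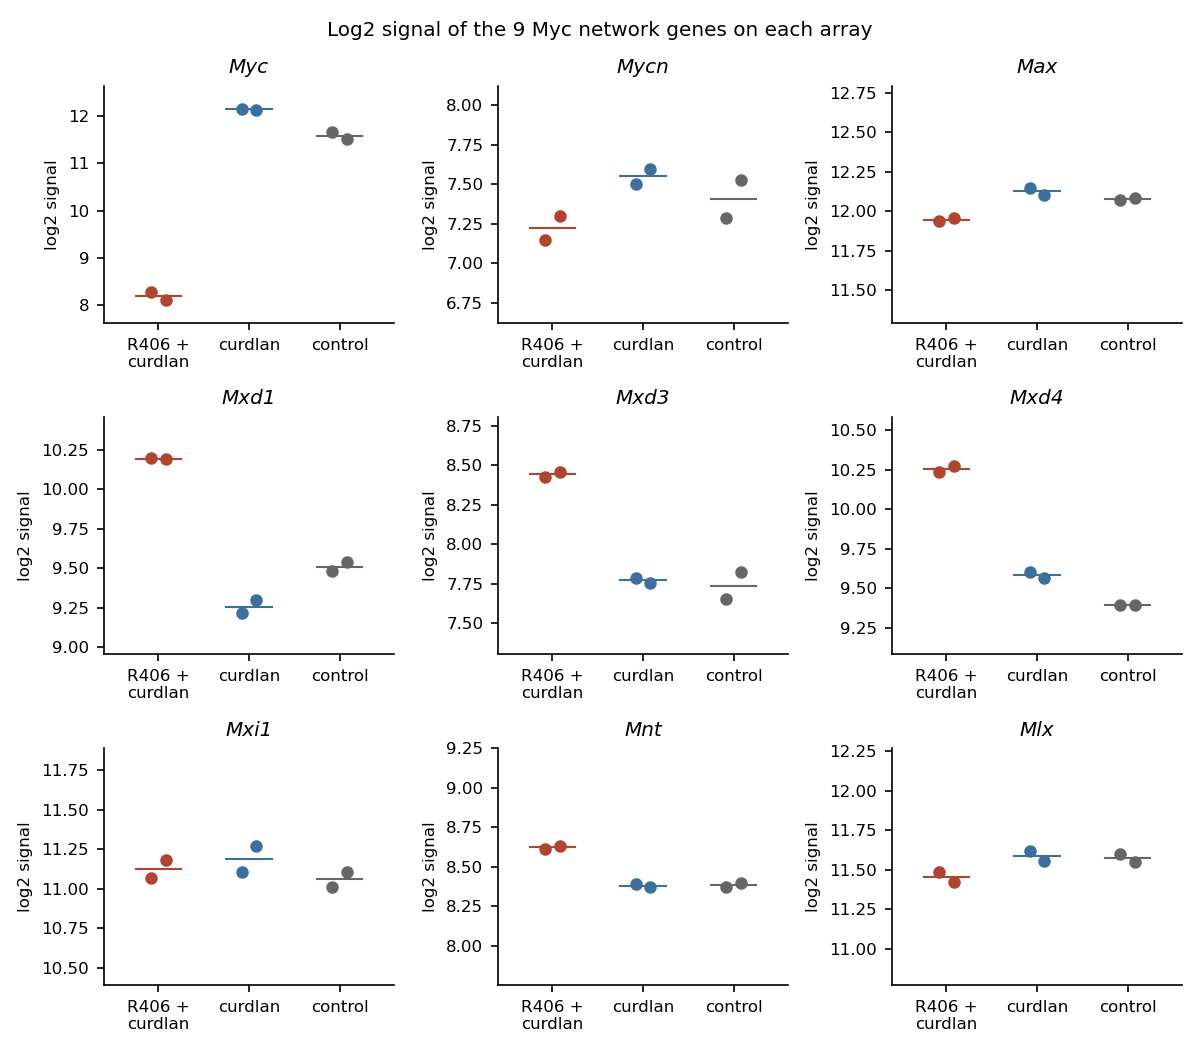
Log2 signal (y axis) of the 9 genes on each of the 6 arrays, as points, with the mean of each group as a line. The axis spans 5 log2 units for Myc and 1.5 for every other gene; the R406 plus curdlan arrays are the lowest for Myc, at 8.12 and 8.29, and the highest for Mxd1, Mxd3, Mxd4 and Mnt.

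Mycn, the neural and embryonic paralogue of Myc, was near the array medians in all groups. Its signals were 7.15 and 7.30 under R406 plus curdlan, 7.50 and 7.60 with curdlan, and 7.29 and 7.53 in control cells. The R406 plus curdlan arrays lay below the curdlan arrays and overlapped the control arrays. Its change against curdlan alone was -0.33 ± 0.103 (adjusted p = 0.147), with a 95% interval of -0.59 to -0.07.

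Max, the shared partner, had small changes. Its signals were 11.94 and 11.96 under R406 plus curdlan, 12.15 and 12.10 with curdlan, and 12.07 and 12.09 in control cells. The R406 plus curdlan arrays were the lowest and did not overlap the others. The change against curdlan alone was -0.18 ± 0.0452 (adjusted p = 0.0927), with a 95% interval of -0.29 to -0.06, and the other Max probe set gave -0.14 ± 0.0538 (adjusted p = 0.219). Max was called lower, at adjusted p = 0.0178 and 0.00511, when only probe sets at or above the median signal were tested and when the variance prior followed the signal.

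Among the antagonists, Mxd1, which encodes the MXD protein known from differentiating myeloid cells, had the largest change. Its signals were 10.20 and 10.19 under R406 plus curdlan, against 9.22 and 9.30 with curdlan and 9.48 and 9.54 in control cells. The groups did not overlap, and their order was the mirror image of that of Myc: highest under R406, intermediate in control cells and lowest with curdlan. Mxd1 rose by 0.94 ± 0.0516 under R406 relative to curdlan alone, a 1.91-fold change (adjusted p = 0.00217), and it stood 38th from the top among the 14506 genes.

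Mxd4, an antagonist known from resting and differentiated cells, had signals of 10.23 and 10.27 under R406 plus curdlan, against 9.60 and 9.56 with curdlan and 9.39 and 9.39 in control cells. These groups did not overlap either, but here the curdlan arrays lay above the control arrays. Mxd4 rose by 0.67 ± 0.0458 under R406 (adjusted p = 0.00357). Without R406 plus curdlan replicate 2 its adjusted p was 0.0527, at a change of 0.65.

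Mxd3, the MXD gene known to be expressed in proliferating cells around S phase, had signals of 8.43 and 8.46 under R406 plus curdlan, against 7.79 and 7.76 with curdlan and 7.66 and 7.82 in control cells. The curdlan and control arrays overlapped and the R406 plus curdlan arrays lay above both. Mxd3 rose by 0.67 ± 0.0685 under R406 (adjusted p = 0.00931). The call was lost without any single curdlan or R406 plus curdlan array, at adjusted p of 0.0583 to 0.0845 and changes of 0.65 to 0.69.

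Mnt, the antagonist that most cell types express whether growing or resting, had signals of 8.61 and 8.63 under R406 plus curdlan, against 8.39 and 8.37 with curdlan and 8.37 and 8.40 in control cells. The R406 plus curdlan arrays were above the others by a small step. Mnt rose by 0.24 ± 0.044 under R406 (adjusted p = 0.0394), a 1.18-fold change. The call was lost without each of the 6 arrays in turn, at adjusted p of 0.0751 to 0.226, and after quantile normalization, at 0.0764.

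Mxi1, which encodes the antagonist also called MXD2, was not called. Its signals were 11.07 and 11.18 under R406 plus curdlan, 11.11 and 11.27 with curdlan, and 11.01 and 11.11 in control cells. The R406 plus curdlan arrays overlapped those of both other groups. Its change against curdlan alone was -0.07 ± 0.0805 (adjusted p = 0.702), with a 95% interval of -0.27 to 0.14, and its other probe sets gave 0.02 and 0.01. Whether Mxi1 differed in its change from the other antagonists was not tested.

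Mlx had signals of 11.48 and 11.42 under R406 plus curdlan, 11.62 and 11.55 with curdlan, and 11.60 and 11.55 in control cells. Its R406 plus curdlan arrays lay below those of both other groups. The change against curdlan alone was -0.13 ± 0.0537 (adjusted p = 0.238).

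Of the 9 genes, 4 rose and 1 fell under R406 relative to curdlan alone. Of all probe sets 4.02% were called higher and 3.23% lower, and of all genes 5.17% and 4.01%. Of the 5 antagonists, 4 had the opposite sign to Myc, each of them called, and 0 were called in the direction of Myc. These 4 include 2, Mxd4 and Mnt, with CACGTG in the promoter window shown and 2, Mxd1 and Mxd3, without it. The groups did not overlap for 4 genes that were higher and 4 that were lower, against 27.7% and 25.6% of all probe sets, so non-overlap was common at 2 arrays per group. The antagonists spanned -0.07 to 0.94, against -3.93 for Myc. Over the 9 genes the median change was -0.07, and over all probe sets it was -0.0019.

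**Figure D2:**
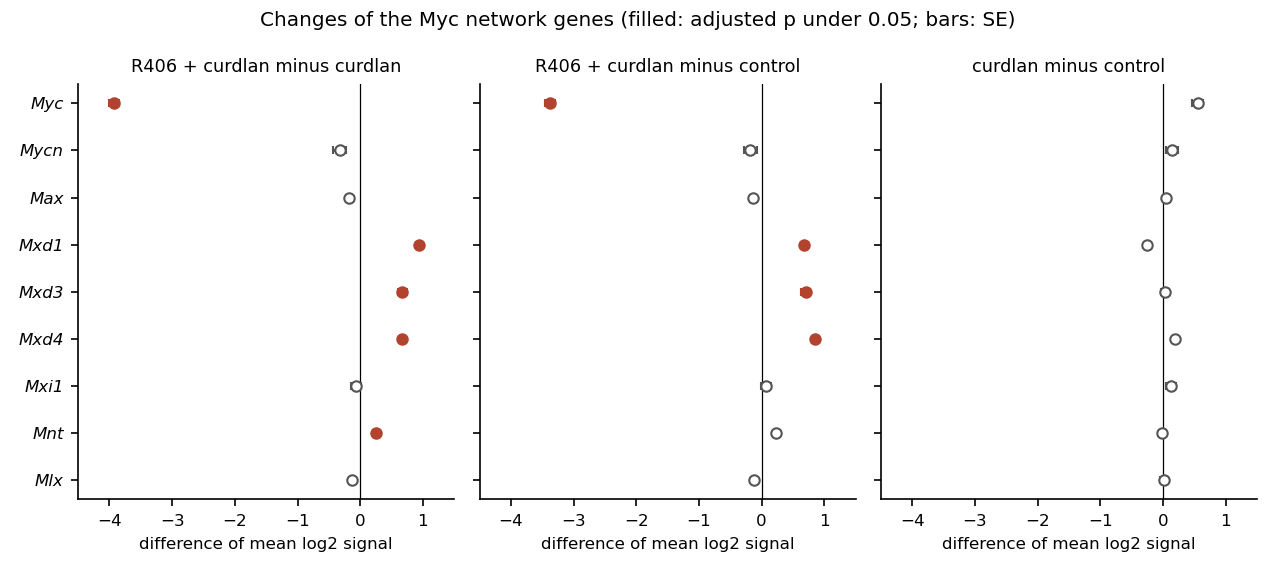
Difference of mean log2 signal (x axis) of each gene in the 3 comparisons, with SE bars, filled where the adjusted p was under 0.05. Myc lies at -3.93 and -3.38 in the comparisons of R406 plus curdlan with curdlan and with control, Mxd1, Mxd3 and Mxd4 lie between 0.67 and 0.94, and no gene is filled for curdlan against control.

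The arrays with R406 plus curdlan were also set against the unstimulated controls, to see whether levels under the inhibitor lay beside or beyond the resting level. The comparison uses the same R406 plus curdlan arrays as the one above, so the 2 sets of changes are not independent. Myc fell by 3.38 ± 0.0807 log2 units, a 10.4-fold lower signal than in control cells (adjusted p = 0.000583), and only 1 gene of the 14506 had a lower value. Mxd4 rose by 0.86 ± 0.0458 (adjusted p = 0.00681), Mxd3 by 0.70 ± 0.0685 (adjusted p = 0.0189) and Mxd1 by 0.68 ± 0.0516 (adjusted p = 0.0123). The R406 plus curdlan arrays lay above the control arrays for all 3.

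Relative to control cells, 3 of the 9 genes rose and 1 fell. Of all probe sets 1.44% were called higher and 0.791% lower, and of all genes 1.92% and 1.1%. All 5 antagonists had the opposite sign to Myc, and 3 were called. The groups did not overlap for 4 genes that were higher and 3 that were lower, against 25.7% and 27.8% of all probe sets. Mnt had a change of 0.24 ± 0.044 (adjusted p = 0.0708) and Mxi1 one of 0.07 ± 0.0805 (adjusted p = 0.693). Mnt was called higher among probe sets at or above the median signal (0.0116) and with a variance prior that followed the signal (0.0463). Mycn, Max and Mlx had changes of -0.18, -0.13 and -0.12, with adjusted p of 0.386, 0.198 and 0.294, and with that prior Max was called lower (0.0301). Myc stayed called without each array in turn, but Mxd1 and Mxd4 did not without any single control or R406 plus curdlan array (adjusted p of 0.0912 to 0.147 and of 0.0759 to 0.091), and Mxd3 did not without any of the 6 (0.0598 to 0.165).

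Curdlan alone gave smaller changes, of which 0 passed the test. Myc was at 12.14 and 12.13 with curdlan, against 11.65 and 11.51 in control cells, and the groups did not overlap. The change was 0.55 ± 0.0807, a 1.46-fold higher signal that just missed the threshold (adjusted p = 0.0537), with a 95% interval of 0.35 to 0.76. It passed at adjusted p = 0.0449 after quantile normalization, at 0.0109 among probe sets at or above the median signal and at 0.00332 with a variance prior that followed the signal.

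Mxd1 lay below control on both curdlan arrays, with a change of -0.25 ± 0.0516 (adjusted p = 0.107), and Mxd4 lay above control on both, with a change of 0.19 ± 0.0458 (adjusted p = 0.153). In the fits that called Myc, Mxd1 was called lower among probe sets at or above the median signal (adjusted p = 0.0216) and with the variance prior that followed the signal (0.0269), but not after quantile normalization (0.0923). Mxd4 was called higher, in the direction of Myc, among probe sets at or above the median signal (0.0309) and not with that prior (0.0561). The changes of Mxd3, Mxi1, Mnt, Mlx, Max and Mycn with curdlan lay between -0.01 and 0.14, with adjusted p of 0.552 to 0.962. In all 0 of the 9 genes were called (limma), while 2 were higher and 1 was lower at an unadjusted p under 0.05. Of all probe sets 1.04% were called higher and 0.551% lower with curdlan, and of all genes 1.42% and 0.71%. The groups did not overlap for 4 genes that were higher and 1 that was lower, against 19.2% and 23.9% of all probe sets. Only 2 of the 5 antagonists, Mxd1 and Mnt, had the opposite sign to Myc, and the change of Mnt was -0.01. Under R406, then, 4 of 5 antagonists were called opposite to Myc relative to curdlan and 3 of 5 relative to control. With curdlan alone neither Myc nor an antagonist was called, while the signal filter and the signal-dependent prior each called Myc higher and Mxd1 lower. These 2 alternatives also called 885 and 918 probe sets higher and 687 and 639 lower, against 304 and 161 without them. The filter did so among fewer tested probe sets.

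Of the proteins that extend the network, only Mlxipl, which encodes ChREBP, was matched to a probe set. It averaged 7.19 under R406 plus curdlan, 7.26 with curdlan and 7.24 in control cells, and its changes were -0.07 ± 0.0653 against curdlan alone (adjusted p = 0.615) and -0.05 ± 0.0653 against control (adjusted p = 0.734). Txnip, the thioredoxin inhibitor gene known as a target of MondoA and Mlx, had 10.63 and 10.58 under R406 plus curdlan, against 8.41 and 8.49 with curdlan and 8.71 and 8.67 in control cells. The R406 plus curdlan arrays stood above all others, and Txnip rose by 2.15 ± 0.0538 (adjusted p = 0.000261). Arrdc4, another MondoA target, was dim at 6.22 and 6.16 under R406 plus curdlan, 6.28 and 6.21 with curdlan and 6.33 and 6.26 in control cells, and its change against curdlan alone was -0.05 ± 0.0547 (adjusted p = 0.658). Of 8 measured MondoA and ChREBP targets, 1 rose under R406 relative to curdlan alone, Txnip, and 1 fell, the fatty acid synthase gene Fasn. Of all genes 5.17% were called higher and 4.01% lower. Fasn changed by -0.44 ± 0.0479 (limma, adjusted p = 0.0106). The call of Fasn was lost without any single curdlan or R406 plus curdlan array, at 0.0569 to 0.102.

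Of 49 measured genes on a list of targets that Myc is known to activate, 17 fell and 0 rose under R406 relative to curdlan alone, and 42 had a negative change. The median change of the list was -0.11, against -0.0023 over all genes, of which 4.01% were called lower. Rrs1, a ribosome assembly factor, had 8.31 and 8.38 under R406 plus curdlan, against 9.38 and 9.25 with curdlan and 8.92 and 8.75 in control cells, and fell by 0.97 ± 0.0813 (adjusted p = 0.00594). Hk2, which encodes the glycolytic enzyme hexokinase, had 9.26 and 9.26 under R406 plus curdlan, against 10.18 and 10.21 with curdlan and 10.30 and 10.45 in control cells, and fell by 0.93 ± 0.0645 (adjusted p = 0.00362). Polr1b, a subunit of RNA polymerase I, and Ppan, a ribosome biogenesis factor, fell by 0.81 ± 0.0512 and 0.78 ± 0.0626 (adjusted p of 0.00288 and 0.00534). When only probe sets at or above the median signal were tested, 1483 were called lower, against 945 of all probe sets. The filter leaves fewer probe sets to test, so counts under it, here and below, are parts of a smaller total. The listed targets were bright, with a median signal of 11.72, and the share called among genes of like signal was not computed. With a variance prior that followed the signal, 1519 were called lower. The count of 17 was 23 and 27 in these fits. It was between 3 and 11 when 1 array was left out, 3 of them without either R406 plus curdlan replicate, 7 and 6 without curdlan replicates 1 and 2, and 11 without either control replicate, and Rrs1 and Ppan lost their calls without R406 plus curdlan replicate 1 and again without replicate 2, at adjusted p of 0.0566 to 0.061.

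Relative to control cells 6 of these 49 targets were lower under R406 plus curdlan and 0 higher. Hk2 was at -1.11 ± 0.0645 (limma, adjusted p = 0.00681). Of all genes 1.1% were called lower. Among probe sets at or above the median signal 853 were called lower, and with that prior 865, against 231 without these alternatives. The signal filter and that prior called 16 and 18 of the targets, all lower, and 0 to 1 of the 49 were called when any 1 array was left out. With curdlan against control 1 target, the cell cycle phosphatase gene Cdc25a, rose, by 0.32 ± 0.0429 (adjusted p = 0.0435), and 0 fell, where 1.42% of all genes were called higher and 0.71% lower. The same 2 alternatives called 7 and 9 targets, all higher, and 885 and 918 probe sets higher, against 304 without them. Cdc25a was not called without any single array (adjusted p of 0.15 to 0.203). The CACGTG element was found in the promoters of 17 of 49 targets with a promoter entry (34.7%). A target counted if any of its promoters held the element. The 6.42% given above is a share of single promoters, so the 2 shares are unlike measures. Of the targets that were also measured, 4 of 13 with the element and 11 of 32 without it fell under R406, with median changes of -0.07 and -0.14.

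Genes that Myc is known to repress were called in both directions under R406 relative to curdlan alone. Of 15 measured, 3 rose and 3 fell, 10 had a negative change, and the median change was -0.06. Of all genes 5.17% were called higher and 4.01% lower in this comparison. The CDK inhibitor genes Cdkn1b and Cdkn2b rose by 0.60 ± 0.0508 and 0.40 ± 0.0461 (adjusted p of 0.00596 and 0.0123), and the stress factor gene Ddit3 rose by 0.85 ± 0.0747. The CDK inhibitor gene Cdkn1a fell by 0.74 ± 0.0697 (adjusted p = 0.00754), and Gadd45a and Gadd45b, growth-arrest and stress genes, fell by 1.25 ± 0.0487 and 0.60 ± 0.0921. Of these 6, only Gadd45a was called without each array in turn. The other 5 were lost without R406 plus curdlan replicate 1 and again without replicate 2, Cdkn2b and Gadd45b also without either curdlan replicate and Cdkn1a without curdlan replicate 1, at adjusted p of 0.0548 to 0.149. Relative to control cells, 0 of the 15 were called higher and 1 lower under R406 plus curdlan, against 1.92% and 1.1% of all genes. There 12 of the 15 had a negative change, and 2 were higher and 6 lower at an unadjusted p under 0.05 (limma). With curdlan against control, 1.42% of all genes were called higher and 0.71% lower. The signal filter and the signal-dependent prior each called 3 of the 15 higher and 2 lower with curdlan. They called 885 and 918 probe sets higher and 687 and 639 lower, against 304 and 161 without these alternatives. Without them, Gadd45b rose by 0.75 ± 0.0921 (limma, adjusted p = 0.0374) and Ddit3 fell by 1.12 ± 0.0747 (adjusted p = 0.00854). This comparison shares its curdlan arrays with that of R406 plus curdlan against curdlan alone. Gadd45b lost this call without each array in turn (0.0821 to 0.183) and Ddit3 without either control replicate or curdlan replicate 1 (0.0552 to 0.0804).

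**Figure D3:**
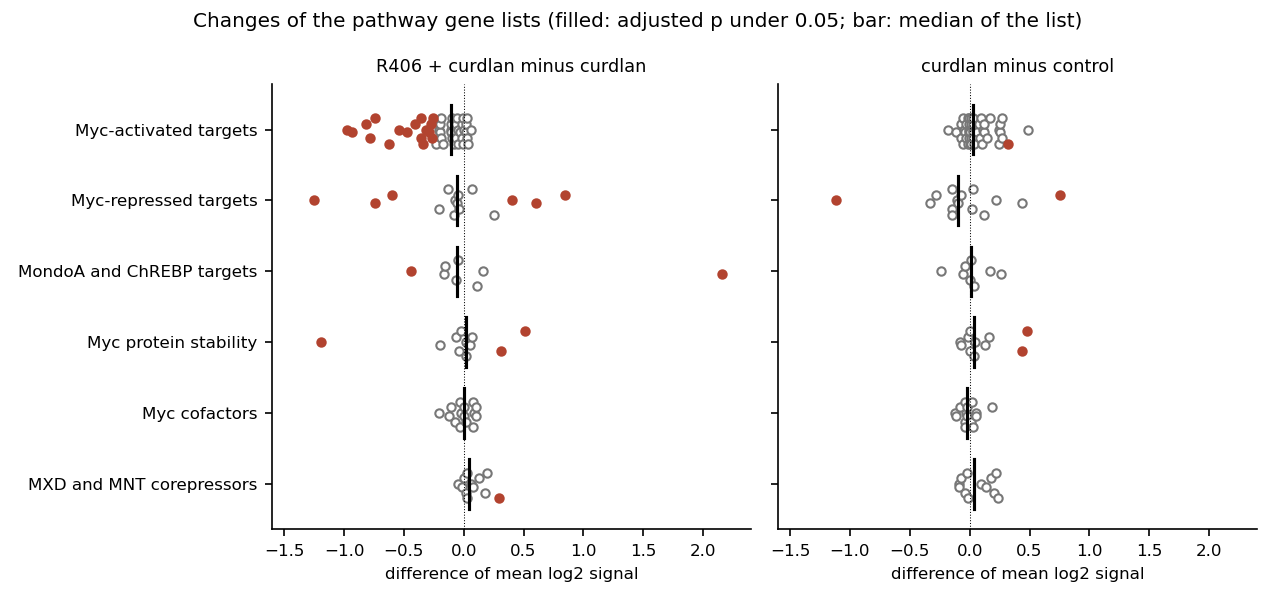
Difference of mean log2 signal (x axis) of each measured gene of 6 pathway lists, for R406 plus curdlan against curdlan (left) and curdlan against control (right). Filled points have an adjusted p under 0.05 and the bar is the median of the list; in the left panel 17 of 49 Myc-activated targets are filled, all at negative values, while Txnip stands alone at 2.15.

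Genes for regulators of the network's proteins were read against the shares of all genes called. Under R406 relative to curdlan alone these were 5.17% higher and 4.01% lower, and with curdlan against control 1.42% and 0.71%. Of 12 measured corepressor genes that MXD proteins and Mnt use, 1 rose under R406 relative to curdlan alone, Ing1, a SIN3 complex subunit, at 0.29 ± 0.0475 (adjusted p = 0.0311, and 0.0594 to 0.177 without each array in turn). Of 15 measured Myc cofactors 0 were called in any of the 3 comparisons (limma). At an unadjusted p under 0.05, 1 was lower and 0 higher under R406 against curdlan. The signal filter and the signal-dependent prior each called 1 cofactor in each comparison, higher with curdlan and lower in both R406 comparisons. These alternatives also called more probe sets in every comparison than the fit without them. With curdlan against control 2 of 11 measured genes that act on the stability of the Myc protein rose and 0 fell. Under R406 relative to curdlan alone 2 of the 11 rose and 1 fell. Aurka rose by 0.51 ± 0.0569 (adjusted p = 0.0111) and Plk1 by 0.31 ± 0.0551 (adjusted p = 0.0384). Both encode mitotic kinases reported to stabilise proteins of the Myc family. Pim1, a kinase that acts together with Myc in lymphoid tumours, had 11.96 and 11.998 under R406 plus curdlan, against 13.15 and 13.19 with curdlan and 12.68 and 12.71 in control cells. It fell by 1.19 ± 0.0462 (adjusted p = 0.000829), in the same order of groups as Myc, and was called without each array in turn. Aurka lost its call without curdlan replicate 2 or either R406 plus curdlan replicate (0.0563 to 0.0913), and Plk1 without each of the 6 arrays (0.0801 to 0.192). With curdlan against control, Pim1 and Skp2, a ubiquitin ligase subunit that targets Myc, rose by 0.48 ± 0.0462 and 0.44 ± 0.0609 (adjusted p of 0.0228 and 0.0467), and both lost the call without each of the 6 arrays (0.103 to 0.208). Relative to control cells, under R406 plus curdlan Aurka, Ing1, the SIN3-associated gene Arid4a and the zinc finger factor gene Klf10, a ChREBP target, were called higher beside Txnip, at 0.56, 0.38, 0.37 and 0.37, and Pim1 and Gadd45a lower, at -0.71 and -1.03. By list, 2 of 12 corepressor genes and 2 of 8 MondoA and ChREBP targets were higher, and 0 lower. Of 11 stability genes 1 was higher and 1 lower, and of 15 Myc-repressed targets 0 were higher and 1 lower. Of all genes 1.92% were called higher and 1.1% lower in this comparison. The signal filter and the signal-dependent prior each called 5 corepressor genes higher in this comparison. They also called 1425 and 1476 probe sets higher, against 421 without these alternatives. Txnip alone among these 7 was called without each array in turn.

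The genes whose pattern lay nearest to Myc were ranked by the root mean square difference of log2 signals over the 6 arrays, after each gene was centred on its own mean. Dusp6, which encodes an ERK phosphatase, differed from Myc by 0.0982 log2 units, against a root mean square of 1.74 for Myc about its own mean. Egr1, an immediate early transcription factor, followed at 0.326, then the stress-responsive kinase gene Plk3 at 0.445, Ier3, an early response gene, at 0.61 and the cytokine gene Osm at 0.623. Dusp6 changed by -3.98 under R406 relative to curdlan alone and by 0.63 with curdlan, beside -3.93 and 0.55 for Myc. The genes nearest to Mxd1 were Pcmtd2 at 0.0451, Ago4 at 0.0465, Clk1 at 0.049, Rnf103 at 0.0498 and Ccpg1 at 0.0612, against a root mean square of 0.397 for Mxd1. Ago4 encodes an Argonaute protein of RNA silencing, Clk1 a kinase of splicing factors, and Ccpg1 a receptor for autophagy of the endoplasmic reticulum. These distances describe 6 arrays in 3 groups and carry no test.

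**Figure D4:**
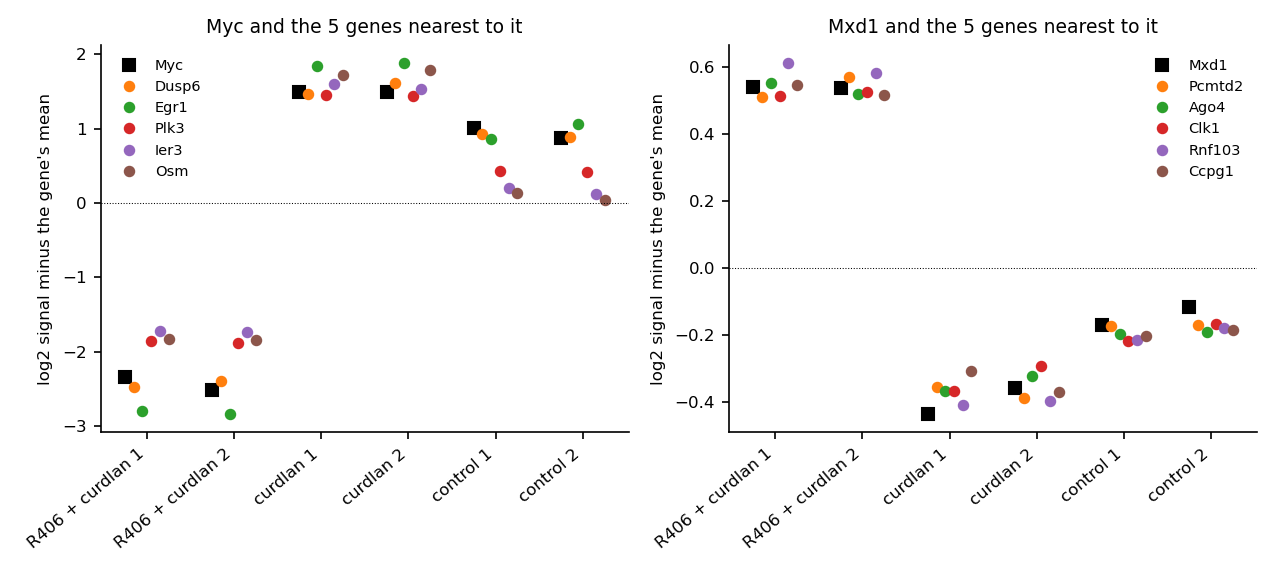
Log2 signal minus the gene's own mean (y axis) on each of the 6 arrays for Myc (left) and Mxd1 (right), as squares, and for the 5 genes nearest to each, as circles. The Myc group is lowest on the R406 plus curdlan arrays and highest on the curdlan arrays, and the Mxd1 group has the opposite order.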

How the data were processed

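Transcripts of 6 samples were measured on Affymetrix arrays. The deposited table gives 1 log2 signal for each probe set on each array. Per the submitters' processing notes, the authors' tool was Expression Console (Affymetrix). The sources used here name neither its background correction and normalization nor a genome build. That the scale is log2 follows from the size of the values only. Groups came from the sample titles.

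Exactly 1 symbol was annotated to 15310 probe sets, while 323 had several and 13581 had none. Probe sets with several symbols were not named. All 29214 probe sets were fitted in 1 linear model with 3 groups (lmFit and eBayes of limma 3.58.1 in R 4.3.3), with 3 residual and 2.155 prior degrees of freedom and no filter, after a check on simulated data. The simulated arrays took their spread from the model's own prior, so the check cannot show whether the model's assumptions hold in these data. Separate cultures for the arrays of each group are not stated in the labels. A p-value therefore covers array-to-array spread only, possibly technical, and precision rests on the number of arrays.

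Named were all 9 members, Mlxipl, Txnip, Arrdc4, up to 4 called genes per direction of each pathway list, not all of which are printed, and the 5 genes nearest to Myc and to the antagonist with the largest change. Members, lists and this rule were chosen with earlier results of these data known. Alternatives were median centring, quantile normalization, a signal filter, an intensity trend, a replicate block, fits of 4 arrays, leaving out each array, and the mean of a gene's probe sets. Promoters came from RefSeq (GRCr8).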

Additional observations from a re-analysis of the deposited data

How the results depend on the processing

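The numbers of probe sets called were 465 for curdlan against control, 2118 for R406 plus curdlan against curdlan and 652 for R406 plus curdlan against control. They were 1572, 3717 and 2278 among probe sets at or above the median signal, 1557, 3767 and 2341 with an intensity trend, 68, 1232 and 182 in fits of the 4 arrays compared, and 32 to 68, 210 to 1232 and 15 to 182 when 1 array was left out, so the 2 arrays per group limit what could be called. Of the 9 genes, 0, 5 and 4 were called. With curdlan 1 was called after quantile normalization, 3 under the signal filter and 2 with the trend. When 1 array was left out, 0, then 2 to 4, and 1 to 3 were called. Changes reversed only where they were near 0, when 1 array was left out: with curdlan Mxd3 ranged from -0.0506 to 0.1164, Mnt from -0.0211 to 0.0043, Mlx from -0.0201 to 0.0471 and Mlxipl from -0.0403 to 0.0833, and under R406 Mxi1 ranged from -0.1465 to 0.0158 against curdlan and Mlxipl from -0.0959 to 0.0036 against control. The cause of these differences was not tested.

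Deviations from the group means correlated weakly between arrays with the same replicate number, and not all in the same direction. The correlations were -0.115 for curdlan and control, -0.00454 for R406 plus curdlan and control, and 0.113 for R406 plus curdlan and curdlan. With the replicate number as a block, 102, 1129 and 62 probe sets and 0, 4 and 2 of the 9 genes were called. With the control numbers crossed, an alternative chosen after seeing the data, 140, 1353 and 210 probe sets were called.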
